A study of Mus musculus with 12 samples.

Results

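Nuclear tRNA genes were examined in 8 deposited lists of HIF1A and ARNT peaks from mouse neuroblastoma cells. The members were all genes that the RefSeq annotation of GRCm38.p6 (mm10) types as tRNA on chromosomes 1 to 19 and X, each taken with 1 kb either side. There were 408 of them among 49209 annotated genes. For 5 genes listed for chromosome 11 (Trnat-ugu, Trnap-ugg, Trnav-aac, Trnal-aag and Trnav-cac) the annotated position lies off the assembled chromosome, so they were not assessed, and 403 genes remained. A gene was counted as having a peak in a list when a peak shared at least 1 bp with its window. The set was selected on the number of its genes with a HIF1A peak at 20% O2, so the values of those lists are given as a description, without a test.

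The cells were N1E115, a mouse neuroblastoma line that the labels call NOS1+, meaning positive for neuronal nitric oxide synthase, grown for 3 days in 5% CO2 at either 20% or 4% O2. Chromatin immunoprecipitation and sequencing (ChIP-seq) used antibodies to HIF1A or to ARNT, with 2 replicates of each antibody at each oxygen level. The labels do not say whether replicates were separate cultures, so the spread between them may be technical. Of the 12 samples, 4 are inputs, that is chromatin sequenced without an antibody, and these were not analysed here. Peak lists hold no expression values, so the cell identity could not be checked against markers.

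HIF1A, whose stability depends on oxygen, pairs with ARNT to form the transcription factor HIF-1, and the pair binds DNA at the short sequences ACGTG and GCGTG. When oxygen is plentiful, HIF1A is hydroxylated and degraded. tRNA genes are transcribed by RNA polymerase III from promoter elements inside the gene, called the A box and the B box, which recruit the factor TFIIIC; TFIIIB and the polymerase follow. Active tRNA genes have open chromatin, and many copies with the same anticodon lie in clusters.

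The B box of the internal promoter can be seen in tRNA genes whose bases are held by the RefSeq promoter table (300 bases around the start of another gene, GRCm38.p6). These 6 genes are shown because the table reaches them with their B box. They were not chosen for their peaks, and they range from 0 to 6 lists with a peak. Capitals mark the B box letters GTTCNANNC, and each gene is read on the strand that carries them.
n-TRtcg5 (arginine, chr7:79466419-79466491, plus strand): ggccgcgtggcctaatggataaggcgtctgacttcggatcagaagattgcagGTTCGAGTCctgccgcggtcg
n-TTagt9 (threonine, chr7:35234770-35234843, minus strand): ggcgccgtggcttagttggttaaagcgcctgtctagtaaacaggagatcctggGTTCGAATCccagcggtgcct
n-TAagc16 (alanine, chr13:21222586-21222657, plus strand): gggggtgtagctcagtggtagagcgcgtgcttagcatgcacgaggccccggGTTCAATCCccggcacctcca
n-TVcac9 (valine, chr13:23446142-23446214, minus strand): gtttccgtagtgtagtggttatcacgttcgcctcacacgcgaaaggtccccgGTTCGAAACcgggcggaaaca
n-TLaag4 (leucine, the 71 bases of its 82 at chr7:120917528-120917598, plus strand): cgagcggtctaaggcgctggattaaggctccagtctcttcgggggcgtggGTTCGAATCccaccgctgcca
n-THgtg7 (histidine, the 62 bases of its 72 at chr3:96452495-96452556, plus strand): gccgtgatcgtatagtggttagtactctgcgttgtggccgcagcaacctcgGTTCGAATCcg
The B box began at base 52 to 62 of the gene in all 6. On either strand, ACGTG or GCGTG occurred once in n-TRtcg5, n-TAagc16 and n-TLaag4, 2 times in n-TVcac9, and not in the shown bases of n-TTagt9 and n-THgtg7. Over the 32851 windows of the table, 9.32% held the B box letters, 5.03% the A box letters and 43.8% ACGTG or GCGTG, on either strand. Of the 10 windows that reach a tRNA gene, 8 (80.0%) held the B box letters and 6 (60.0%) held ACGTG or GCGTG. A run of letters is a description and not a bound site.

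At 20% O2, HIF1A peaks lay at a large share of all tRNA genes. Replicate 1 had a peak at 167 of the 403 genes (41.4%, 95% Wilson interval 36.7 to 46.3) and replicate 2 at 198 (49.1%, 44.3 to 54.0). The background was both ends of 21521 protein-coding genes, 43042 windows with the same 1 kb either side. Of these windows, 1.11% had a peak in replicate 1 and 7.59% in replicate 2. In both lists together, 164 tRNA genes had a peak, 40.7% of the members, beside 1.02% of the protein-coding ends. Only 3 of the 167 genes of replicate 1 lacked a peak in replicate 2, while 34 genes had one in replicate 2 alone. These counts describe the pattern the set was chosen for. The intervals cover the counting of genes only, and neighbouring genes are not independent, since one peak can reach several windows.

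The list totals differed widely. HIF1A at 20% O2 had 5393 peaks in replicate 1 and 13386 in replicate 2, and at 4% O2 it had 42701 peaks in replicate 1 and 13655 in replicate 2. The ARNT lists held 7252 peaks (replicate 1) and 1808 (replicate 2) at 20% O2, then 24942 and 9920 at the lower level. Read depth is unknown. All 4 replicate 1 libraries carry the same sequencing lane in their file headers. The HIF1A replicate 2 lists hold single base positions, taken as peak summits and called against another input, and were made from reads of a pair of combined runs, so replicate, list format and input cannot be told apart for HIF1A. At each oxygen level, HIF1A replicate 1 and both ARNT lists were called against the same input, so their values are set side by side and an overlap between them is not read as a result.

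For HIF1A at 4% O2 the replicates differed. Replicate 1 had a peak at 173 tRNA genes (42.9%, 38.2 to 47.8), beside 20.0% of protein-coding ends. Replicate 2 had a peak at 49 (12.2%, 9.32 to 15.7), beside 9.09% of ends. All 49 also had a peak in replicate 1, so 49 genes (12.2%) had a peak in both lists, against 8.95% of ends. Counted per protein-coding gene, with a peak at either of its ends, the share was 17.3%. Whether tRNA genes lay above or below the background at 4% O2 thus depends on how it is counted. The tRNA share was 2.14 times that of the ends in replicate 1 and 1.34 times in replicate 2, where at 20% O2 it was 37.2 and 6.48 times. Within the lane shared by the replicate 1 libraries, HIF1A reached 167 tRNA genes at 20% O2 and 173 at 4% O2, in lists of 5393 and 42701 peaks.

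ARNT peaks were fewer at tRNA genes. At 20% O2, replicate 1 had a peak at 34 genes (8.44%, 6.10 to 11.6; ends 4.65%) and replicate 2 at 3 genes (0.744%, 0.254 to 2.17; ends 1.69%). At 4% O2, replicate 1 had a peak at 82 genes (20.3%, 16.7 to 24.6; ends 15.0%) and replicate 2 at 27 genes (6.70%, 4.65 to 9.57; ends 10.5%). In both lists, 3 genes had an ARNT peak at 20% O2 (0.744%, ends 1.55%) and 23 at 4% O2 (5.71%, ends 8.24%). In each ARNT group, replicate 1 lay above the share of the protein-coding ends and replicate 2 below it.

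**Figure D1:**
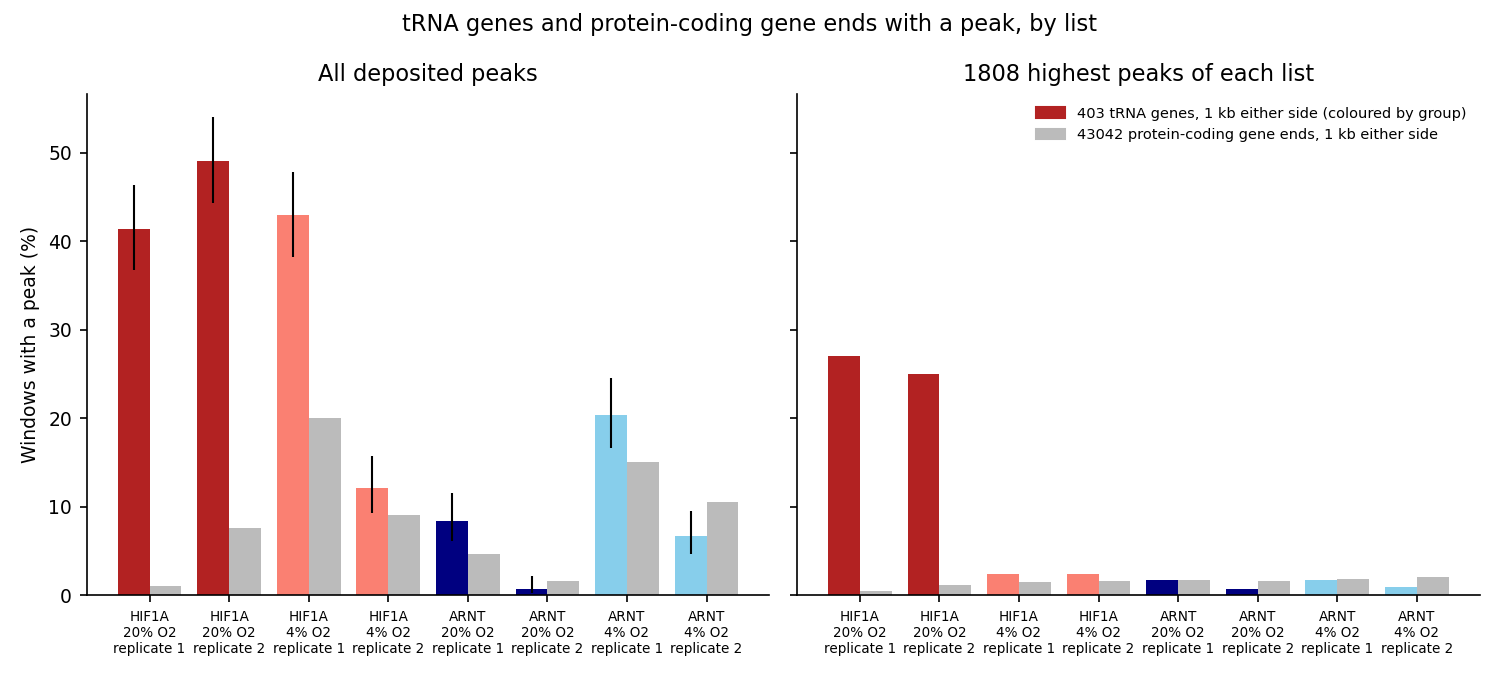
Percent of windows with a peak in each of the 8 lists, for 403 tRNA genes (coloured bars; lines on the left are 95% Wilson intervals) and 43042 protein-coding gene ends (grey bars). The left panel uses all deposited peaks and the right panel the 1808 highest-scoring peaks of each list; in the right panel the HIF1A lists at 20% O2 stand at 27.0% and 25.1% of tRNA genes and the other 6 lists at 2.48% or less.

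Peak numbers per list were made equal by keeping the 1808 highest-scoring peaks of each, the length of the shortest list. HIF1A at 20% O2 then had a peak at 109 tRNA genes in replicate 1 and 101 in replicate 2, beside 0.472% and 1.22% of protein-coding ends. HIF1A at 4% O2 had a peak at 10 genes in each replicate, beside 1.56% and 1.67% of ends. The ARNT lists at 20% O2 reached 7 genes in replicate 1 and 3 in replicate 2 (ends 1.70% and 1.69%), and those at 4% O2 reached 7 and 4 (ends 1.86% and 2.08%). As a share of the 1808 peaks, those at tRNA genes were 4.70% in each HIF1A list at 20% O2 and 0.221% in each at 4% O2. In both lists, 85 genes were reached by HIF1A at 20% O2 (ends 0.362%), 9 by HIF1A at 4% O2 (ends 1.30%), 3 by ARNT at 20% O2 (ends 1.06%) and 3 by ARNT at 4% O2 (ends 1.20%). The HIF1A lists of the 2 oxygen levels did not overlap on these counts, which is part of the pattern used to choose the genes and was not tested.

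Comparisons that the choice of genes did not use were tested with exact two-sided permutation tests over lists. With 2 lists against 2, the smallest p such a test can give is 0.333, so none could pass 0.05. The share of tRNA genes with an ARNT peak was 13.5% ± 9.65 (SD, n = 2) at 4% O2 and 4.59% ± 5.44 (n = 2) at 20% O2, a difference of 8.93 percentage points (exact permutation p = 0.667, adjusted 0.667 over 4 tests). Of all ARNT peaks, 0.263% ± 0.0586 (SD, n = 2) lay at tRNA genes at 4% O2 and 0.179% ± 0.175 at 20% O2 (exact permutation p = 0.667). At 4% O2, HIF1A reached 27.5% ± 21.8 of the genes (SD, n = 2) and ARNT 13.5% ± 9.65 (exact permutation p = 0.667). The share of peaks was 0.377% ± 0.129 (SD, n = 2) for HIF1A and 0.263% ± 0.0586 for ARNT (exact permutation p = 0.667). In all 4 comparisons the values of the compared groups overlapped. Within each replicate number the difference had the same sign, for example 20.3% against 8.44% in replicate 1 and 6.70% against 0.744% in replicate 2 for ARNT at 4% and 20% O2. The sizes moved with list length: with 1808 peaks per list the difference in genes reached was 0.124 percentage points for ARNT (4% minus 20% O2) and 1.12 for HIF1A minus ARNT, where the full lists gave 8.93 and 14.0. For tRNA genes more than 5 kb from protein-coding ends the ARNT difference was 3.03. In the share of peaks, the ARNT difference was 0.0839 with both replicates, 0.00134 without replicate 2 and 0.00890 with windows of 250 bp.

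HIF1A peaks at 20% O2 sat on the tRNA genes themselves, which are 72 bp long at the median (70 to 107 bp). Of the peak centres within 1 kb of a tRNA gene, 130 of 148 (87.8%) in replicate 1 and 165 of 190 (86.8%) in replicate 2 fell inside the gene. In the HIF1A lists at 4% O2, 88 of 195 centres (45.1%) and 14 of 39 (35.9%) fell inside. For ARNT at 4% O2, 21 of 74 centres (28.4%) were inside a gene in replicate 1 and 1 of 21 (4.76%) in replicate 2. ARNT at 20% O2 had 13 of 22 centres (59.1%) inside in replicate 1 and its single centre inside in replicate 2. The rule used a window and not the position within it, but the centres come from the same peaks, so these shares are a description.

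Counts were also made for the gene span alone, with no bases added. HIF1A at 20% O2 then had a peak at 147 and 165 genes in replicates 1 and 2, and HIF1A at 4% O2 at 138 and 14. The ARNT lists at 20% O2 reached 18 genes in replicate 1 and 1 in replicate 2, and those at 4% O2 reached 43 and 4. In both lists, HIF1A at 4% O2 had 14 such genes where the 1 kb window gave 49, and ARNT at 4% O2 had 4 where it gave 23. ARNT at 20% O2 had 1. Among windows of 36 bp either side of protein-coding ends, a peak in both lists was found at 0.186% for HIF1A at 20% O2 and 1.99% for HIF1A at 4% O2. For ARNT it was 0.911% at 20% O2 and 4.40% at 4% O2. Few genes lay near the 1 kb limit: in each list, 0 to 3 genes had their nearest peak 900 to 1000 bp away, and 1 to 3 had it just outside, at 1000 to 1100 bp.

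**Figure D2:**
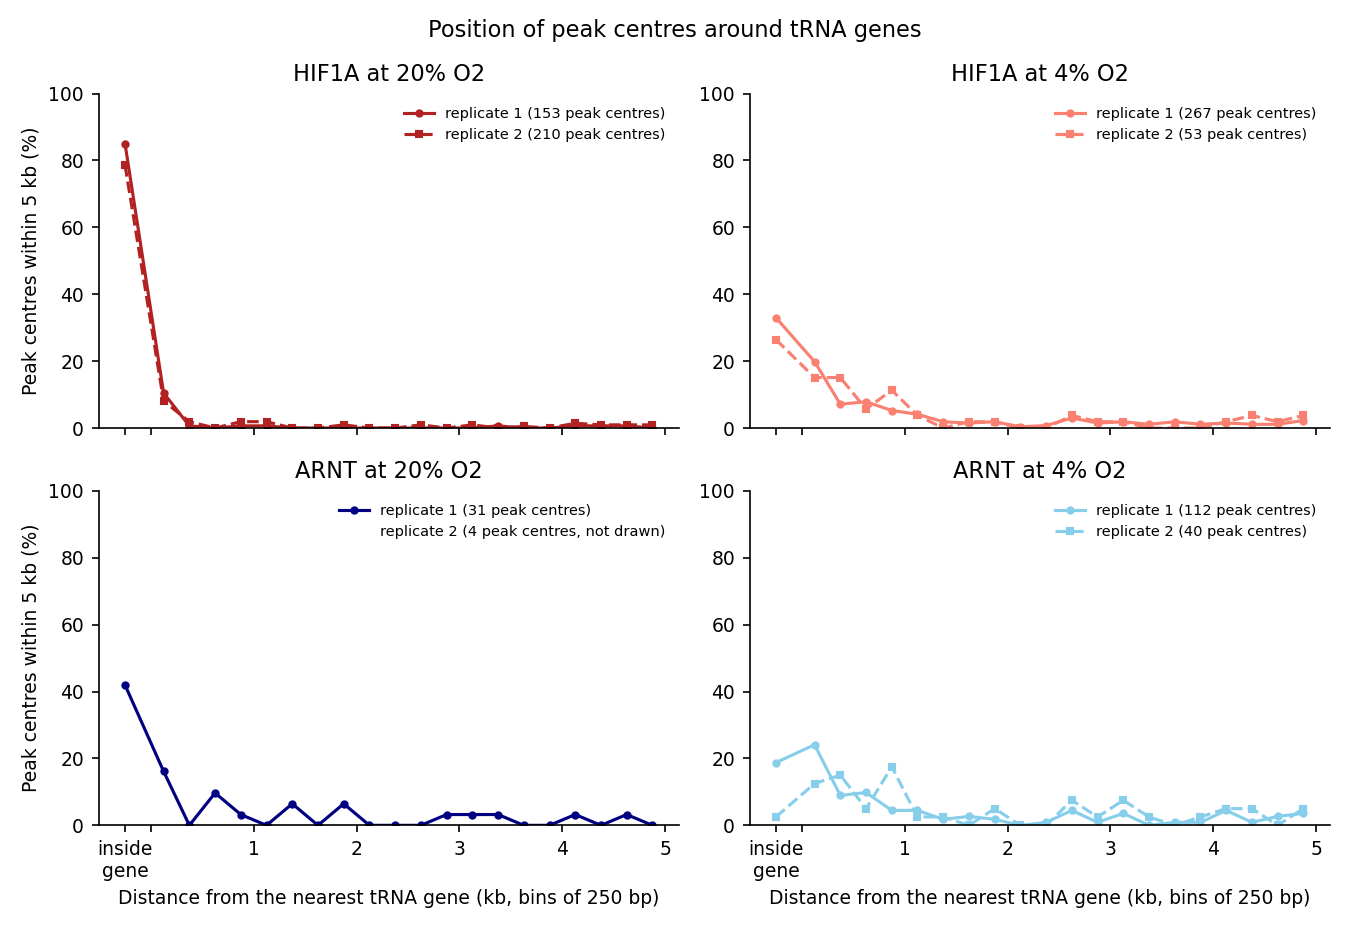
Percent of the peak centres within 5 kb of a tRNA gene that lie inside the gene or in each 250 bp bin of distance, by group; lines join the bins of one replicate. In the HIF1A lists at 20% O2 most centres are inside the gene, while at 4% O2 the centres of HIF1A and ARNT spread over the first kilobase; ARNT at 20% O2 replicate 2 has only 4 centres and is not drawn.

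Of the 164 genes with a HIF1A peak in both lists at 20% O2, 44 (26.8%) had one in both HIF1A lists at 4% O2, 100 in a single list and 20 (12.2%) in neither. Of the 439 protein-coding ends called in the same way at 20% O2, 68.3% had a peak in both HIF1A lists at 4% O2 and 1.37% in neither. Seen from 4% O2, 44 of the 49 genes (89.8%) were among the 164, which make up 40.7% of all members. Of the 3853 protein-coding ends with both HIF1A peaks at 4% O2, 300 also had both at 20% O2. Replicate 1 at 4% O2 held 144 of the 164 and replicate 2 held 44. These are counts over the full lists, of 42701 and 13655 peaks; with 1808 peaks per list, each replicate at 4% O2 reached 10 tRNA genes. Of the 164 genes, 86 (52.4%) had no peak in either ARNT list at 4% O2, against 13.4% of the protein-coding ends called at 20% O2. Of the 23 genes with an ARNT peak in both lists at 4% O2, 22 were among the 164, beside 40.7% of all members. No peak in any list was found at 186 of the 403 genes (46.2%), and no such share is given for protein-coding ends.

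The share of called genes was set beside the distance to protein-coding genes. A total of 297 tRNA genes lay more than 5 kb from any end of a protein-coding gene. HIF1A at 20% O2 had a peak in both lists at 93 of them (31.3%, 26.3 to 36.8) and at 71 of the 106 nearer genes (67.0%, 57.6 to 75.2). HIF1A at 4% O2 had both at 21 of the distant genes (7.07%) and 28 of the nearer ones (26.4%). ARNT at 4% O2 had both at 3 distant genes (1.01%) and 20 nearer ones (18.9%). In these 3 groups the share was higher near protein-coding ends. ARNT at 20% O2 had its 3 genes among the distant ones (1.01%) and 0 among the 106 nearer ones. Overlap with the span of a protein-coding gene was seen for 34 tRNA genes, of which 13 (38.2%) had a peak in both HIF1A lists at 20% O2, beside 151 of the other 369 (40.9%).

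tRNA genes cluster, and 260 of the 403 lay in 13 clusters of at least 5 genes with no gap over 100 kb. HIF1A at 20% O2 had a peak in both lists at 88 of these genes (33.8%) and at 76 of the 143 outside them (53.1%). HIF1A at 4% O2 had both at 21 in clusters and 28 outside, and ARNT at 4% O2 at 5 and 18. The 3 genes of ARNT at 20% O2 all lay in a cluster. All 19 chromosomes that hold a member had at least 1 gene with both HIF1A peaks at 20% O2. When genes with touching windows were merged into 267 loci, 98 loci had a peak in both HIF1A lists at 20% O2, 30 at 4% O2, and 18 in both ARNT lists at 4% O2.

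The clusters differed from all genes called to none. On chromosome 11, all 8 genes at 48818542 to 48857055 and all 18 at 69037003 to 69125248 had a peak in both HIF1A lists at 20% O2. So did all 8 genes on chromosome 19 (12002236 to 12012338) and all 5 on chromosome 5 (125404250 to 125409543). On chromosome 19, all 8 genes also had a HIF1A peak in replicate 1 at 4% O2, and none had one in replicate 2. In the first chromosome 11 cluster, 4 of 8 genes had both HIF1A peaks at 4% O2, and in the second 4 of 18 did. Those last 4 were n-TIaat4, n-TTagt7, n-TSgct3 and n-TWcca6. ARNT at 4% O2 had a peak in both lists at 1 gene of the first cluster and 4 of the second.

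The largest clusters were only partly covered. On chromosome 13 the 3 clusters hold 24, 32 and 45 genes, of which 6, 15 and 5 had both HIF1A peaks at 20% O2, and 0, 0 and 2 at 4% O2. In HIF1A replicate 1 alone, 7, 16 and 6 of them had a peak at 20% O2, and 8, 12 and 8 at 4% O2. The clusters of chromosomes 1 and 3 hold 25 genes each, with 8 called at 20% O2 in each, and 5 and 4 at 4% O2. The chromosome 6 cluster has 48 genes, 47 of them counted for cysteine. The other, n-Tcgca44, has a lower-case letter in its symbol and was left without an amino acid. None of the 48 had a HIF1A peak at 20% O2, and 1 had a peak in replicate 1 at 4% O2. The X chromosome cluster of 8 alanine genes had no peak in any list. Genes of one family can be near-identical, and how the authors treated reads that map to several copies is not given in the sources used here, so calls at such copies are uncertain. Within the cluster spans, 42 ends of protein-coding genes lay outside tRNA windows; 0 of them had a peak in both HIF1A lists at 20% O2 and 4 did at 4% O2.

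**Figure D3:**
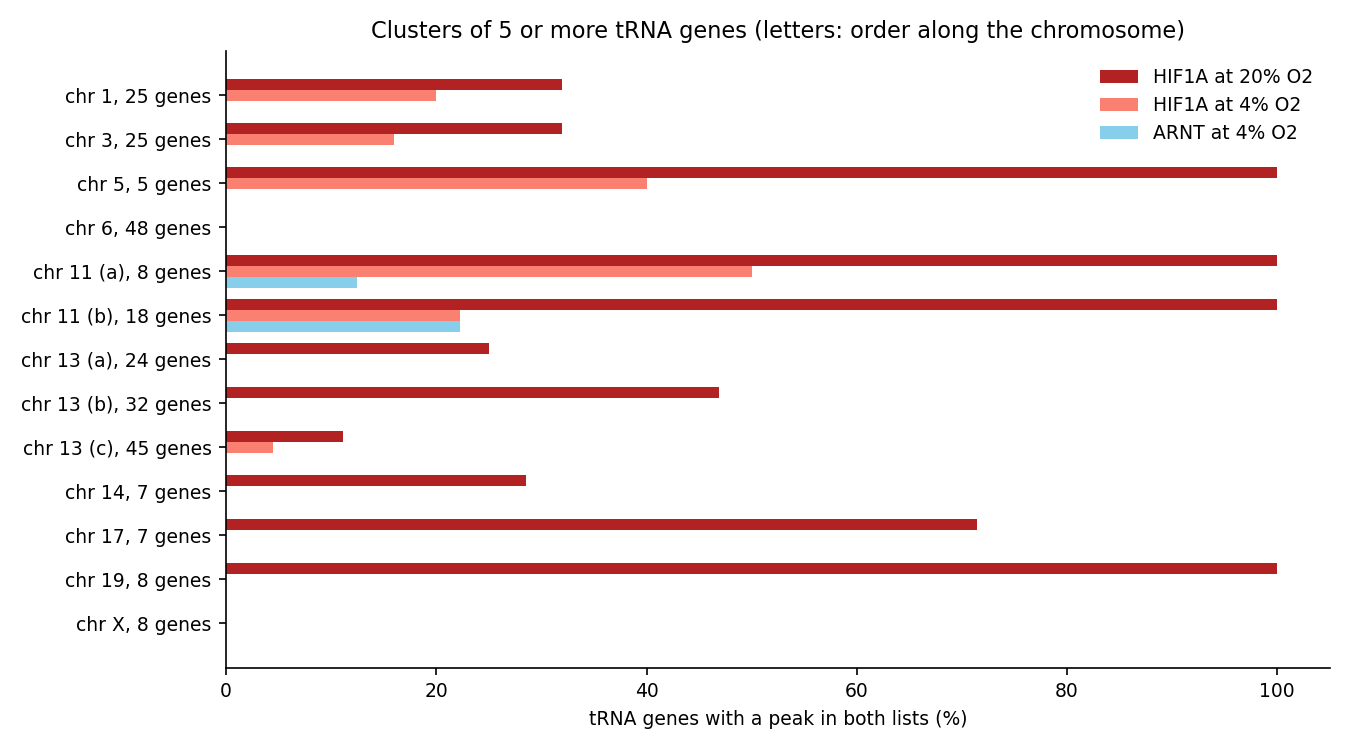
Percent of the tRNA genes in each of 13 clusters (chromosome and number of genes on the left) that had a peak in both lists, for HIF1A at 20% O2, HIF1A at 4% O2 and ARNT at 4% O2. The clusters of chromosomes 5 and 19 and both of chromosome 11 reach 100% for HIF1A at 20% O2, the chromosome 6 and X clusters have no bar, and the bars for 4% O2 are shorter in each cluster that has one.

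By amino acid, all 20 families had a gene with a peak in both HIF1A lists at 20% O2. The share ran from 6 of 7 phenylalanine genes (85.7%) to 5 of 56 cysteine genes (8.93%). Aspartate (10 of 16), arginine (15 of 24) and tryptophan (5 of 8) each had 62.5%, and leucine had 15 of 25 (60.0%). At the low end, valine had 6 of 22 (27.3%) and alanine 8 of 33 (24.2%). Of the 48 cysteine genes on chromosome 6, n-TCgca57 alone was called, and 4 of the 8 elsewhere were. One gene, n-Tcgca44, has no amino acid in capitals in its symbol and was left out of these counts.

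At 4% O2 the families had fewer genes called in both lists. In the full lists this came from replicate 2, which had 198 genes of all families at 20% O2 and 49 at 4% O2. Replicate 1 had 167 and 173, in lists of 5393 and 42701 peaks. Each of the 20 families still had a gene with both HIF1A peaks at 4% O2, from 2 of 56 for cysteine (3.57%) to 7 of 24 for arginine (29.2%). For ARNT at 4% O2, 15 families had such a gene, and arginine again had 7 of 24, while no other family had more than 2. By anticodon, 45 of 48 groups had a gene with both HIF1A peaks at 20% O2, 28 had one at 4% O2, and 18 did so in the ARNT lists at that level. The 3 groups with none at 20% O2 were histidine ATG, isoleucine TAT and serine GGA, each of 1 gene.

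**Figure D4:**
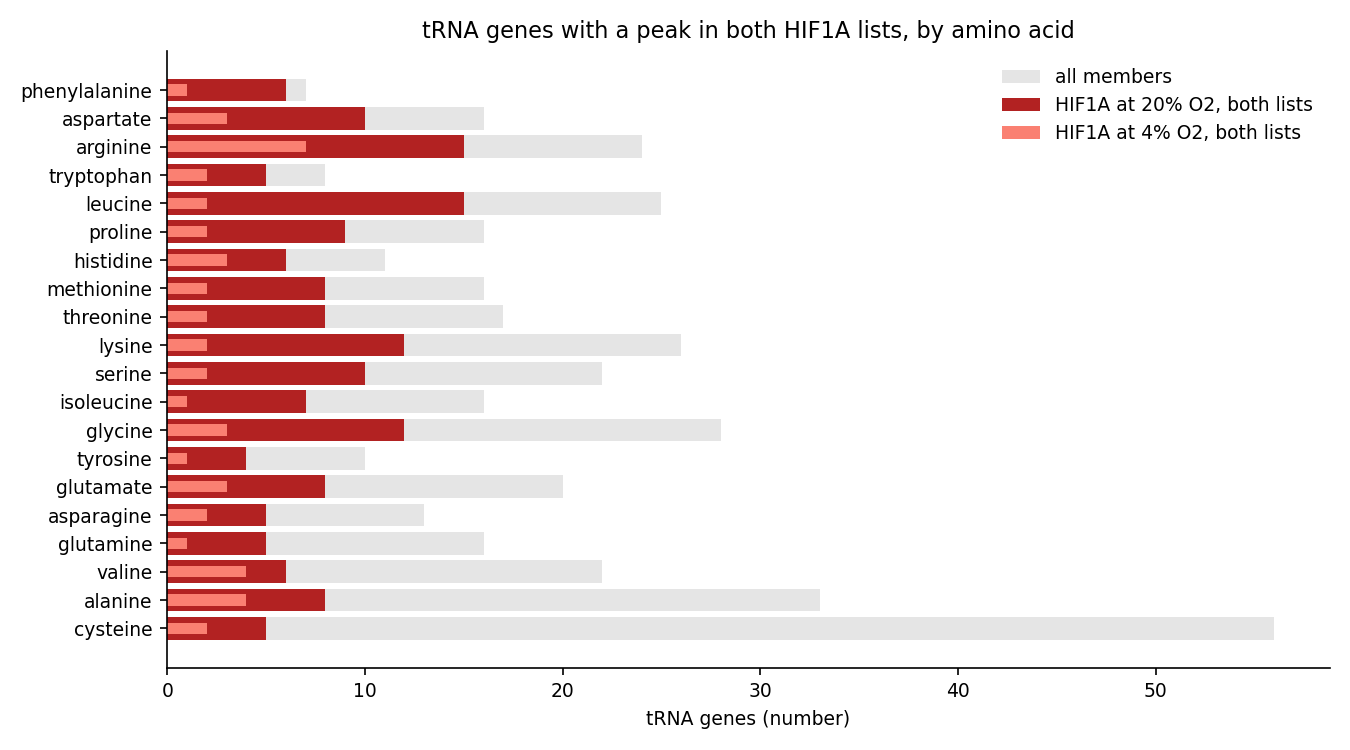
Number of tRNA genes of each amino acid (grey), with those that had a peak in both HIF1A lists at 20% O2 (dark red) and at 4% O2 (light red, narrow). Every family has a dark red bar; cysteine, with 56 genes, has 5 at 20% O2 and 2 at 4% O2.

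For single genes, the authors' score of a peak is given as its percentile rank within its own list, where 100 is the highest. Lists differ in length, so ranks are not compared between lists. The rank is that of the highest peak in the window, which need not lie on the gene. The highest genes of HIF1A at 20% O2 were n-TDgtc5 (aspartate), n-TGtcc3 (glycine) and n-TEctc6 (glutamate), at 171102371 to 171103114 on chromosome 1, 10798 bp or more from Cfap126. They shared the same highest peak in each replicate, ranked 99.0 in both. That peak lies 338 bp (replicate 1) and 633 bp (replicate 2) from n-TDgtc5, and the replicate 2 summit is inside n-TEctc6. In both replicates, n-TDgtc5 also had a lower peak centred inside it. n-TEctc6 ranked 80.7 and 54.5 in the HIF1A lists at 4% O2, 88.7 and 71.9 in the ARNT lists at 20% O2, and had no ARNT peak at 4% O2. The 3 genes shared a single peak in each ARNT list at 20% O2, which covers n-TEctc6.

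The histidine genes n-THgtg3 and n-THgtg5 on chromosome 2 (122377363 to 122378039, 8216 bp or more from Shf) shared a peak ranked 99.4 in HIF1A replicate 1 and 98.5 in replicate 2 at 20% O2. At 4% O2 the HIF1A ranks were 91.3 and 46.8. For n-THgtg5 the ARNT ranks were 28.0 at 20% O2 and 56.8 at 4% O2, both in replicate 1, and replicate 2 had no ARNT peak at either level. Those ARNT peaks lie 628 and 633 bp from n-THgtg5, away from the shared HIF1A peak. At the shared HIF1A peak, the ARNT replicate 1 ranks were 18.2 at 20% O2 and 43.5 at 4% O2. On chromosome 11, n-TKctt10 (lysine) and n-TAtgc9 (alanine), which lie within the span of Trim7, ranked 99.0 and 98.5 for HIF1A at 20% O2 and 89.4 and 56.2 at 4% O2. Their ARNT peaks were again in replicate 1 alone, at 29.1 (20% O2) and 73.2 (4% O2). Of these shared peaks, those ranked 99.0 and 73.2 cover n-TKctt10, and the rest lie on n-TAtgc9.

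The genes ranked highest in the lists at 4% O2 are given next, with their nearest protein-coding gene. n-TAagc15 (alanine) and n-TYgta9 (tyrosine), on chromosome 5 at 30888515 to 30888587 and 30888083 to 30888171, lie 52 and 468 bp from Agbl5, which encodes a carboxypeptidase that acts on tubulin. Both ranked 94.2 and 95.4 for HIF1A at 20% O2, and at 4% O2 they ranked 98.5 and 97.4 in the HIF1A lists and 98.1 and 96.8 in the ARNT lists. For ARNT at 20% O2 they had a peak in replicate 1 alone, at rank 5.63. The 2 genes share these peaks, and all but the last lie 295 to 674 bp from n-TYgta9. n-TRacg2 (arginine), 256 bp from Sacm1l, ranked 92.8 and 96.6 for HIF1A at 20% O2 and 99.1 and 61.0 at 4% O2. Its ARNT ranks were 96.3 and 83.5 at 4% O2 and 14.2 in replicate 1 at 20% O2. The peaks ranked 99.1, 96.3 and 83.5 lie 396, 886 and 605 bp from n-TRacg2, and the other peaks given lie on it. HIF1A replicate 1 at 4% O2 also had a lower peak centred inside n-TRacg2. n-TIaat4, n-TTagt7 and n-TSgct3, 744 to 1466 bp from Borcs6, shared ranks of 89.2 and 93.8 for HIF1A at 20% O2, 98.2 and 93.3 at 4% O2, and 94.4 and 81.5 for ARNT at 4% O2. n-TWcca6, 1919 bp from Borcs6, shared the peaks at 4% O2. Not all genes that ranked high for HIF1A at 4% O2 were close to a protein-coding end: n-TVcac9 and n-TRacg5, which shared ranks of 94.6 and 66.7 there, lie 10770 and 10120 bp away. These 2 and n-TWcca6 were picked after their values were seen. In all, 12 of the 403 genes (2.98%) had a peak in 7 of the 8 lists, some of which share an input. No such share is given for protein-coding ends. No tRNA gene had a peak in both lists of all 4 groups. For each of the 12 genes the missing list was ARNT replicate 2 at 20% O2, the shortest. Besides the genes near Agbl5, Sacm1l and Borcs6, these 12 were n-TEctc12 (596 bp from Acp6), n-TRcct1 (858 bp from Fmc1), and n-TRcct5, n-TRcct3 and n-TRtcg4 (307 to 1105 bp from Mrpl58). The last 3, all for arginine, shared peaks ranked 91.4 and 97.1 for HIF1A at 20% O2, 97.5 and 90.3 at 4% O2, and 92.6 and 23.6 in the ARNT lists at 4% O2.

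Other genes had HIF1A peaks at 20% O2 and few elsewhere. n-TDgtc12 (aspartate), the highest gene of the middle chromosome 13 cluster, ranked 88.2 and 90.6 for HIF1A at 20% O2 and 33.6 in replicate 1 at 4% O2, with no other peak. n-TRcct2 (arginine), on chromosome 17, ranked 83.4 and 95.9 at 20% O2 and 24.4 in replicate 1 at 4% O2, also with no other. n-TTtgt4 (threonine) and n-TQttg4 (glutamine), which lead the other 2 clusters of chromosome 13, had peaks in the HIF1A lists at 20% O2 alone, ranked 63.6 and 63.3 for the first and 25.3 and 58.4 for the second. Among the 20 genes with both HIF1A peaks at 20% O2 and none at 4% O2, 16 (80.0%, 58.4 to 91.9) lay more than 5 kb from a protein-coding end. Of all 403 tRNA genes, 297 (73.7%) lay that far, a share within that interval. So did 93 of the 164 with both HIF1A peaks at 20% O2, and 19 of the 44 with peaks in all 4 HIF1A lists.

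At n-TAagc15 the positions of the peaks differed between the lists with single base positions. The highest summit of HIF1A replicate 2 at 20% O2, of 3 in the window, was at 30888548, inside the tRNA gene. At 4% O2 the highest summit of replicate 2 was at 30888845, 258 bp beyond the tRNA gene. That is 206 bp inside the span of Agbl5 in the gene table, which begins at 30888639, and 7 bp before 30888852, the first of 4 starts that the RefSeq promoter table gives for Agbl5. The bases around that summit are shown, from 100 bases before to 30 from that first start, with ACGTG and GCGTG in capitals.
Agbl5 promoter (chr5:30888752-30888881, plus strand): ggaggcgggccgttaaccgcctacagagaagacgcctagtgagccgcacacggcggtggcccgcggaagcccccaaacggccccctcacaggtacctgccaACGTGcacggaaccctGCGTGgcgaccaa
The ACGTG at 30888853 to 30888857 lies 8 bp from the highest summit at 4% O2 and 305 bp from the highest at 20% O2. Distances to the lower summits were not taken. The GCGTG at 30888869 to 30888873 lies 24 and 321 bp from these highest summits. At n-TRtcg5, whose bases are given above, the replicate 2 summit was inside the gene at 20% O2 (79466453). At 4% O2 the list has 2 summits in its window, 1 of them inside the gene, and the higher at 79466850, 359 bp away. At n-TEctc6, n-TAtgc9, n-TDgtc14, n-TVcac7 and n-TRacg2 the highest replicate 2 summit was inside the gene at both oxygen levels. Over the 48 tRNA genes with a replicate 2 summit in the window at both levels, a summit lay inside the gene at both levels for 14, at 20% O2 alone for 26, at 4% O2 alone for 0 and at neither for 8. The genes are not independent, since the list at 4% O2 has 39 summits within 1 kb of a tRNA gene. These counts rest on 1 list per level, that at 20% O2 was used to choose the set, and they were not tested.

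**Figure D5:**
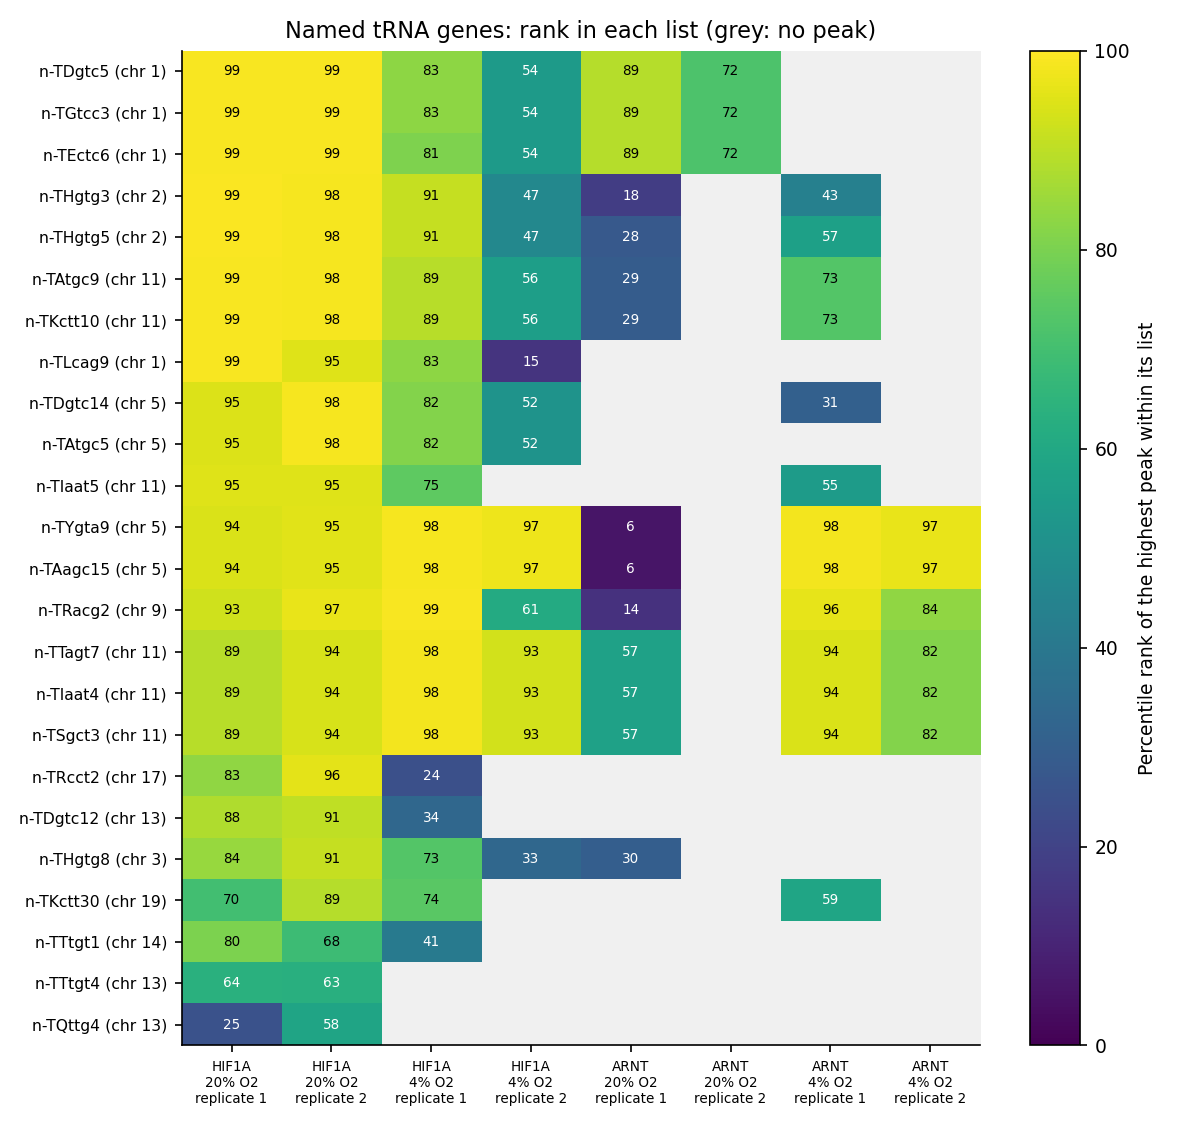
Percentile rank, within each list, of the highest peak in the window of each named tRNA gene (rows, with chromosome) in the 8 lists (columns); grey means no peak, and colour runs from 0 to 100. The upper genes are above 94 in both HIF1A lists at 20% O2; the genes near Agbl5, Sacm1l and Borcs6 are the ones with peaks in both ARNT lists at 4% O2.

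Other short RNA genes were read in the same way. Of 3626 other annotated small RNA genes, 0.634% had a peak in both HIF1A lists at 20% O2: 7 of 996 snRNA genes, 6 of 1330 snoRNA genes, 6 of 1228 miRNA genes and 0 of 51 genes for 5S rRNA, which polymerase III also transcribes. At 4% O2 the count in both HIF1A lists was 19 snRNA, 20 snoRNA, 48 miRNA and 1 of the 5S rRNA genes, and 2.51% of all 3626. ARNT had a peak in both lists at 0.276% of them at 20% O2 and 1.96% at 4% O2. Copies of 5S rRNA genes are also near-identical, so the same reservation on reads applies.

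Other genes transcribed by polymerase III varied. Rn7s1 and Rn7s2, the RNA of the signal recognition particle, had a HIF1A peak in all 4 HIF1A lists, as did Rmrp, the RNA of the nuclease RNase MRP. Rn7s1 ranked 69.1 and 64.2 at 20% O2 and 91.0 and 87.6 at 4% O2. Rny3, a Y RNA, had one in both lists at 20% O2 (62.8 and 85.7) and in replicate 1 at 4% O2 (50.7). Vaultrc5, a vault RNA, ranked 91.5 and 93.8 at 20% O2 and 75.7 in replicate 1 at 4% O2. Rpph1, the RNA of RNase P, and Bc1, a neuronal RNA, had a peak only in HIF1A replicate 1 at 4% O2. Rn7sk ranked 31.5 in HIF1A replicate 2 at 20% O2 and 53.0 in replicate 1 at 4% O2. Rny1, another Y RNA, had a peak only in HIF1A replicate 2 at 20% O2 (50.85). Rnu6 had none in any list, and none of these genes had an ARNT peak at 20% O2. At 4% O2, ARNT had a peak in both lists at Rn7s1 (76.7 and 79.8) and Rmrp (35.3 and 60.1). Rn7s2, Rny3 and Rn7sk had an ARNT peak in 1 list at 4% O2.

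The protein-coding genes that make and process tRNA were read by peaks within 1 kb of either end. The background, over 21521 protein-coding genes, was 2.03% with a peak in both HIF1A lists at 20% O2, 17.3% in both at 4% O2, 3.06% in both ARNT lists at 20% O2 and 16.1% in both at 4% O2. Among 30 genes of polymerase III and its factors, 4 had both HIF1A peaks at 20% O2 and 10 at 4% O2 (33.3%). The ARNT lists held 3 of them at 20% O2 and 11 (36.7%) at the lower level. Snapc1, a subunit of the complex that directs transcription of small nuclear RNA, ranked 98.8 and 96.7 in the HIF1A lists at 4% O2 and 98.5 and 98.1 in the ARNT lists. Maf1, a repressor of polymerase III, ranked 99.1 and 95.5 in the ARNT lists at 20% O2 and 98.2 and 88.2 in those at 4% O2, and had no pair of HIF1A peaks. Bdp1, a subunit of TFIIIB, had both HIF1A peaks at 20% O2 (64.4 and 91.7) and both ARNT peaks at 20% O2 (95.6 and 86.6). Polr3e, a subunit of the polymerase, had both HIF1A peaks at 20% O2 and no ARNT peak at that level, and the HIF1A peak lies in a window shared with n-TLaag4.

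Of 29 genes for tRNA maturation, 1 had both HIF1A peaks at 20% O2 and 11 at 4% O2 (37.9%), and ARNT had 3 and 13. Xpot, which exports tRNA from the nucleus, ranked 99.3 and 96.6 in the HIF1A lists at 4% O2 and 98.3 and 96.3 in the ARNT lists. Rpp38, a subunit of RNase P, was the gene called for HIF1A at 20% O2 (68.8 and 97.0). Of 20 cytosolic aminoacyl-tRNA synthetase genes, 2 had both HIF1A peaks at 20% O2 and 6 at 4% O2, and ARNT had 1 and 8. Farsa, a subunit of the phenylalanine enzyme, ranked 98.3 and 99.2 for HIF1A at 20% O2, and Dars, the aspartate enzyme, 98.9 and 96.7 for HIF1A at 4% O2. All 3 lists of protein-coding genes had more genes called at 4% than at 20% O2 with either antibody. For tRNA genes the HIF1A counts in both lists ran the other way, 164 at 20% O2 and 49 at 4% O2, and the ARNT counts were 3 and 23. The HIF1A order came from replicate 2 (198 and 49), while replicate 1 had 167 and 173. The counts at 20% O2 are also part of the pattern the set was chosen for.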

How the data were processed

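HIF1A and ARNT peaks of N1E115 cells were read from 8 deposited lists, with positions on mm10. The submitters' processing notes name MACS2, BWA and Picard; their versions, their settings and how reads that map to several places were handled are stated in none of the sources used here. Each list's score, as the authors deposited it, is of unnamed scale and was used only to rank peaks within that list. As deposited, 6 lists hold intervals; the HIF1A replicate 2 lists hold single base positions. Peaks were joined to RefSeq genes (GRCm38.p6) with at least 1 bp of overlap (Python 3.11.15, pandas 2.3.3, numpy 2.4.6, scipy 1.17.1). Overlap code was tested on simulated data. Members, gene lists and rules were chosen with earlier results of these data known. The named genes were the 10 highest by mean rank in HIF1A at 20% O2, the 5 highest of each other group, and the highest of each cluster. Exact permutation tests were adjusted by Benjamini-Hochberg. Alternatives were other windows, equal peak numbers, merged loci, distant genes, and each replicate left out.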

Additional observations from a re-analysis of the deposited data

How the results depend on the processing

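The number of tRNA genes with a peak in both lists was recomputed under 10 alternatives per group. For HIF1A at 20% O2 (164) it was 85 with the 1808 highest peaks per list, 98 as merged loci, 93 for genes more than 5 kb from protein-coding ends, and 167 to 198 when a replicate was left out. For HIF1A at 4% O2 (49) it was 14 with the gene span alone, 23 with 250 bp, 78 with 5 kb, 9 with the highest peaks, 30 as loci, 21 far from protein-coding ends and 49 to 173 with a replicate left out. For ARNT at 20% O2 (3) it was 1 with the gene span, 6 with 5 kb, 1 as loci and 3 to 34 with a replicate left out. For ARNT at 4% O2 (23) it was 4 with the gene span, 11 with 250 bp, 49 with 5 kb, 3 with the highest peaks, 3 far from protein-coding ends and 27 to 82 with a replicate left out. Loci and distant genes are fewer by construction. The direction of the other shifts was also fixed: narrower windows and fewer peaks can only lower a count, and wider windows or a replicate left out can only raise it. What set the size of the shifts was not tested. The ARNT difference in the share of peaks (4% minus 20% O2, 0.0839) reversed with the gene span (-0.0474) and far from protein-coding ends (-0.0299). Deviations of same-numbered lists correlated between groups from -0.0268 to 0.349, so the numbers are not shown to pair lists; with the replicate block the exact permutation p was 0.500 for the differences 8.93, 0.0839, 14.0 and 0.114. Of 40 alternatives for the counts, 20 stayed within 1.5 times. Of 44 for the differences, 42 kept the sign and 26 also stayed within 1.5 times. Some alternatives in these totals could not move, so the totals overstate how stable the values were. The replicate block reuses the main differences, and merging loci leaves the share of peaks as it was. Widening single base entries to 150 bp leaves the ARNT lists, and so their counts and differences, unchanged. With the highest peaks, the differences in genes reached were 0.124 (ARNT) and 1.12 (HIF1A minus ARNT). Depth is unknown.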
